A study of Mus musculus with 6 samples.

Results

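The endoplasmic reticulum (ER) folds secreted and membrane proteins, and its chaperones, degradation machinery and stress sensors form 1 gene module. The module was described here through 45 named genes, of which 44 had a row among the 19078 genes of the expression table, and *Derl3* was not analysed for its level. Members were found by gene symbol, by a rule that uses no measured value, though the list was chosen with earlier results of these data known. They fell by role into 4 calcium-dependent chaperones, 7 disulfide isomerases and oxidases, 8 co-chaperones and luminal or secreted proteins, 13 factors of ER-associated degradation (ERAD), 8 genes of the PERK, IRE1 and ATF6 sensor arms, 2 translocon subunits and 3 other ER membrane or calcium-related genes.

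Poly(A) RNA was sequenced from immortalized mouse fibroblasts in 3 libraries labelled *Ms4a15* OE and 3 control libraries, which the labels give as wild type. In the overexpressing cells the gene was switched on from its own locus by CRISPR activation with a guide to *Ms4a15*, and the cells were a pool, not a single clone. Both groups descended from male embryonic fibroblasts carrying a conditional *Gpx4* deletion controlled by a tamoxifen-inducible Cre, so the controls carry these alleles too. The methods describe the control cells as infected with empty lentivirus. They name the CRISPR activation system for the fibroblasts but do not state separately whether the controls carried it. The fibroblasts were grown as a culture in medium with serum, and the labels name no drug. The same fields do not say whether libraries of 1 group came from separate cultures.

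The value used for each gene was the mean normalized read count over all 6 libraries, as the authors computed it. Single-library values were not analysed. For that reason no difference between *Ms4a15* OE and control cells is given for any gene, and every value below pools both groups. The spread between libraries is likewise unknown, and errors cover read counting only. They ran from 0.161% of the mean for *Hspa5* to 2.49% for *Ero1lb*. Summed over genes the means came to 4.10e+07 normalized counts. Size factors read back from the lowest means ran from 0.887 to 1.14 over the 6 libraries, so that the highest was 1.28 times the lowest. Read totals per library were not seen. Which library belongs to which size factor was not worked out. *Ms4a15* itself had a mean of 638 normalized counts over both groups together, which cannot check the labels. Of 10 fibroblast markers, 9 were in the table and each had a mean above 100, from 278 for *Pdgfra* to 135155 for *Col1a2*. The summed means of epithelial, leukocyte and endothelial markers were 185, 198 and 125 against 451994 for the fibroblast markers, with *Epcam* at 0.176, *Ptprc* at 11.1 and *Pecam1* at 15.9. Most of these sums came from 1 marker each, *Krt14* at 170, *Cd68* at 164 and *Cdh5* at 107. Of the plasma cell markers *Sdc1*, which fibroblasts also express, was at 6931 and *Irf4* at 0.326.

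Proteins enter the ER through the Sec61 channel, meet the Hsp70 chaperone BiP and the lectins calnexin and calreticulin, and are joined by disulfide bonds that protein disulfide isomerases form and rearrange. Calreticulin, GRP94 and BiP also bind much of the calcium stored in the lumen, and their folding work depends on that store. Proteins that fail to fold are drawn back through the membrane, ubiquitinated by ligases such as HRD1, pulled out by the ATPase VCP and degraded. When unfolded proteins build up, the sensors PERK, IRE1 and ATF6 slow translation and raise transcription of these genes, the unfolded protein response (UPR). ATF6 and XBP1 act through short promoter sequences, chiefly the ER stress response element (ERSE), in which a CCAAT box bound by NF-Y is followed after a fixed gap by CCACG.

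Because promoter elements of this kind define the module's regulation in textbook accounts, the RefSeq promoters of the members were searched for them. Each promoter window held 300 bases of GRCm38.p6, from 250 before to 50 after the annotated start. Windows were found for 37 of the 45 members, including *Derl3*. *Manf*, *Hyou1*, *Hspa13*, *Derl1*, *Erlec1*, *Ppp1r15b*, *Atf6* and *Sec61a1* had no entry. The ERSE was written as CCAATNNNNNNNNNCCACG and searched on both strands. It stood in 10 of the 37 member promoters, 27.0%, whereas 23 of 12655 listed genes with a promoter held it, 0.182%. Of those 23 genes 9 were members, and without the members 14 of 12619 listed genes held it, 0.111%. The module was assembled around well-known UPR targets, and such targets are in part known through these elements, so the share among members is not independent of how such genes come to be listed together. *Hsp90b1* held 2 copies. The 11 copies are printed 5′ to 3′ with 6 flanking bases and the fixed letters in capitals, since all 4 calcium-dependent chaperones held one.
*Hspa5*, chr2:34772019-34772049, + strand: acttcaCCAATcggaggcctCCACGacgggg
*Hsp90b1*, chr10:86705632-86705662, - strand: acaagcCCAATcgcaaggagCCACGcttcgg
*Hsp90b1*, chr10:86705527-86705557, + strand: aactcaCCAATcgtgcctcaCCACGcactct
*Calr*, chr8:84847069-84847099, + strand: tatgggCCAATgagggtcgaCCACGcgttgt
*Canx*, chr11:50325794-50325824, - strand: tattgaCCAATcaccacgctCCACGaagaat
*Pdia6*, chr12:17266485-17266515, + strand: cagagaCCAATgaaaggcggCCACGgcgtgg
*Ero1lb*, chr13:12565676-12565706, - strand: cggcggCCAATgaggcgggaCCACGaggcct
*Dnajc3*, chr14:118937821-118937851, + strand: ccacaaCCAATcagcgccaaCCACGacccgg
*Creld2*, chr15:88819514-88819544, - strand: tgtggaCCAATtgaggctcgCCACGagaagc
*Syvn1*, chr19:6046526-6046556, + strand: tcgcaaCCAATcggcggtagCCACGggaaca
*Derl3*, chr10:75893236-75893266, - strand: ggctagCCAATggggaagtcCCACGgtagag

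The 4 chaperones were *Hspa5*, *Hsp90b1*, *Calr* and *Canx*. Of the 7 isomerases and oxidases *Pdia6* and *Ero1lb* did, of 5 co-chaperone promoters *Dnajc3* and *Creld2*, and of 11 ERAD promoters *Syvn1* and *Derl3*. None of the 6 sensor-arm promoters, 3 of the PERK arm, 2 of the IRE1 arm and 1 of the ATF6 arm, held those letters in this window, which says nothing on where ATF6 or XBP1 bind. The copies began between 44 bases upstream of the start in *Syvn1* and 212 bases upstream in *Hsp90b1*. The second *Hsp90b1* copy, at 107 bases upstream, and those of *Calr*, *Ero1lb*, *Creld2* and *Derl3* ran on the opposite strand to the gene. The ERSE of *Hspa5*, at 65 bases upstream of the RefSeq start, lay within a GENCODE exon of *Hspa5* outside its coding part, because GENCODE places the gene's first base further upstream. The other 10 copies lay where GENCODE annotated no gene.

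**Figure D1:**
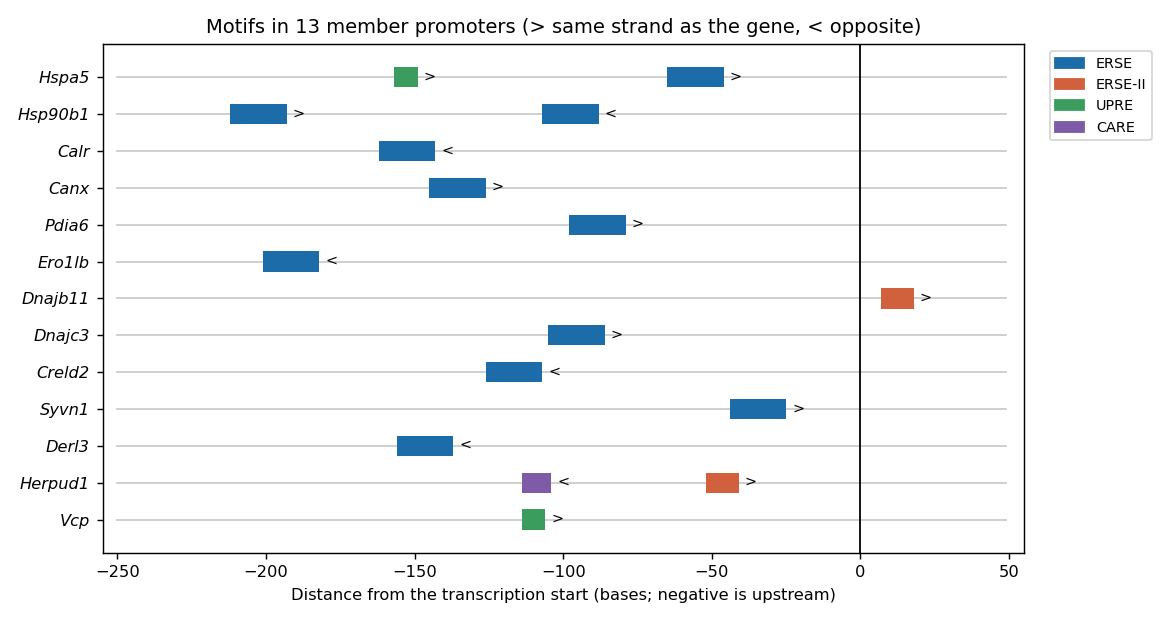
Positions of ERSE (blue), ERSE-II (orange), UPRE (green) and CARE (purple) matches in the 13 member promoters that held at least 1 of them, on an axis of bases from the RefSeq transcription start with upstream negative. The arrowheads give the strand relative to the gene. ERSE copies lay from 212 to 44 bases upstream, and the ERSE-II of *Dnajb11* alone lay downstream of the start.

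Other UPR motifs were rarer among the members. The ERSE-II, written as ATTGGNCCACG, begins with the reverse complement of the CCAAT box and stood in 2 promoters, 5.41%, against 0.0711% of listed genes. These were *Herpud1*, a component of the HRD1 complex, at 52 bases upstream, and *Dnajb11*, a BiP co-chaperone. The *Dnajb11* match lay at 7 bases downstream of the start in an exon outside the coding part.
*Dnajb11*, chr16:22857846-22857868, + strand: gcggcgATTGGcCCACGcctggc
*Herpud1*, chr8:94386371-94386393, + strand: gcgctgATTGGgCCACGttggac

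The UPR element (UPRE), searched as TGACGTGG or TGACGTGA, stood in 2 promoters, 5.41%, against 1.66% of listed genes. It lay 157 bases upstream in *Hspa5* and 114 bases upstream in *Vcp*, both on the strand of the gene. Other lists of ER genes, described below, held the UPRE too.
*Hspa5*, chr2:34771927-34771946, + strand: tagcaaTGACGTGAgttgcg
*Vcp*, chr4:43000608-43000627, - strand: gccaatTGACGTGGcgttac

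The C/EBP-ATF response element (CARE), through which ATF4 and CHOP act, was searched as TGATGNAANC or TGATGNAANT. Among members it stood in *Herpud1*, 114 bases upstream on the opposite strand, a share of 2.70% against 1.53% of listed genes. Both *Herpud1* motifs lay in an intron of the overlapping gene model Gm15890.
*Herpud1*, chr8:94386309-94386330, - strand: gcgggcTGATGcAAcCcgccgt

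**Figure D2:**
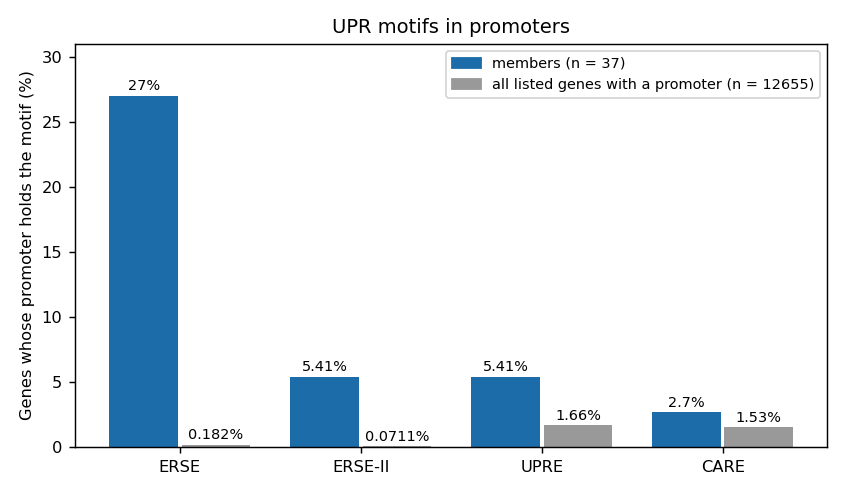
Share of promoters (percent, vertical axis from 0) that held each UPR motif, for the 37 member promoters (blue) and for the 12655 listed genes with a promoter (grey). The ERSE stood in 27.0% of member promoters and 0.182% of listed genes. For the CARE the shares were 2.70% and 1.53%.

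The whole *Hspa5* window is shown because it combined an ERSE, a UPRE and 4 CCAAT boxes. The *Herpud1* window is shown because it combined an ERSE-II and a CARE. Capitals mark these motifs and the CCAAT boxes, on either strand.
*Hspa5*, chr2:34771840-34772139, + strand: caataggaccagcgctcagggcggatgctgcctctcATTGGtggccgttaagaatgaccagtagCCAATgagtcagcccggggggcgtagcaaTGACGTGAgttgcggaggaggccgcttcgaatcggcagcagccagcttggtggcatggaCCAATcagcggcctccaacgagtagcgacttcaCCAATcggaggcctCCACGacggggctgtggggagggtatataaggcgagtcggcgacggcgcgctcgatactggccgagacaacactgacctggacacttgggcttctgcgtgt
*Herpud1*, chr8:94386179-94386478, + strand: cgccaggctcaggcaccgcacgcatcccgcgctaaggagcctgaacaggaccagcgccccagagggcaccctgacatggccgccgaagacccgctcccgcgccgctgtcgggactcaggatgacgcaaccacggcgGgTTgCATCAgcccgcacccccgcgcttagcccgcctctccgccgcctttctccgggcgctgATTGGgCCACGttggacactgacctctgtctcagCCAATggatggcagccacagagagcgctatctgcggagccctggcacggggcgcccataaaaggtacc

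CCAAT boxes, which are part of the ERSE, were common in member promoters. The counts cover all member promoters and include boxes inside the ERSE and ERSE-II. The 10 promoters with an ERSE thus held at least 1 by definition, as did the 2 with an ERSE-II. In promoters without an ERSE the number ran from 0, as in *Pdia5*, to 6 in *Eif2ak3*. Counts for other lists of ER genes are given below. At least 1 box stood in 29 of 37 member promoters, 78.4%, against 42.8% of listed genes, and at least 2 stood in 22, 59.5%, against 15.6%. *Hsp90b1* and *Eif2ak3* held 6 each. Neither IRE1-arm promoter held one. The members' promoters had a median GC content of 62.3% beside 59.3% for listed genes, with a range from 42% in *Tmem33* to 80.3% in *Ero1l*. When 1 changed letter was allowed among the last 5 of the ERSE, a search added after the values were seen, 18 member promoters matched, 48.6%, against 1.54% of listed genes. The 8 promoters gained are printed with the same 6 flanking bases and the letters that match in capitals.
*Pdia3*, chr2:121413867-121413897, + strand: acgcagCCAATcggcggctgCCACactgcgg
*Pdia4*, chr6:47813596-47813626, + strand: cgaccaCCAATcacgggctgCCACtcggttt
*Sel1l*, chr12:91849324-91849354, - strand: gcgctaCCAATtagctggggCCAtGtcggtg
*Derl2*, chr11:71019465-71019495, + strand: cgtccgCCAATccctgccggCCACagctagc
*Herpud1*, chr8:94386405-94386435, + strand: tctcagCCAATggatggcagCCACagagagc
*Vcp*, chr4:43000718-43000748, - strand: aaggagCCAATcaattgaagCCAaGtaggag
*Ddit3*, chr10:127290696-127290726, - strand: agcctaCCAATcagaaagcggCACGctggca
*Nucb2*, chr7:116504279-116504309, + strand: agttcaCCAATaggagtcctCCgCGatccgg

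They included *Pdia3* and *Pdia4*, which brought the isomerases and oxidases to 4 of 7. Also among them was *Ddit3*, at 91 bases upstream, the only 1 of the 6 sensor-arm promoters that came near the element. In *Herpud1* the changed copy began 18 bases upstream, apart from its ERSE-II.

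To compare levels between genes, each mean was divided by the length in kilobases of the gene's longest transcript in GENCODE. This gave a level in normalized counts per kb for 16239 genes, with a median of 157. The 44 members ran from 71.4 per kb for *Ero1lb* to 24898 per kb for *Calr*, a span of 349 times, with a median of 1026. Of them 43 lay above the median of all genes with a length, and *Ero1lb* lay below it. The median of all genes includes 4474 genes with a mean under 10. Against the higher median of the genes whose mean reached 100, 35 of 44 lay above. The module held 1.18% of the summed level of all genes. Its 4 highest members took 47.9% of that share, and each of them stood among the 100 genes with the highest level.

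**Figure D3:**
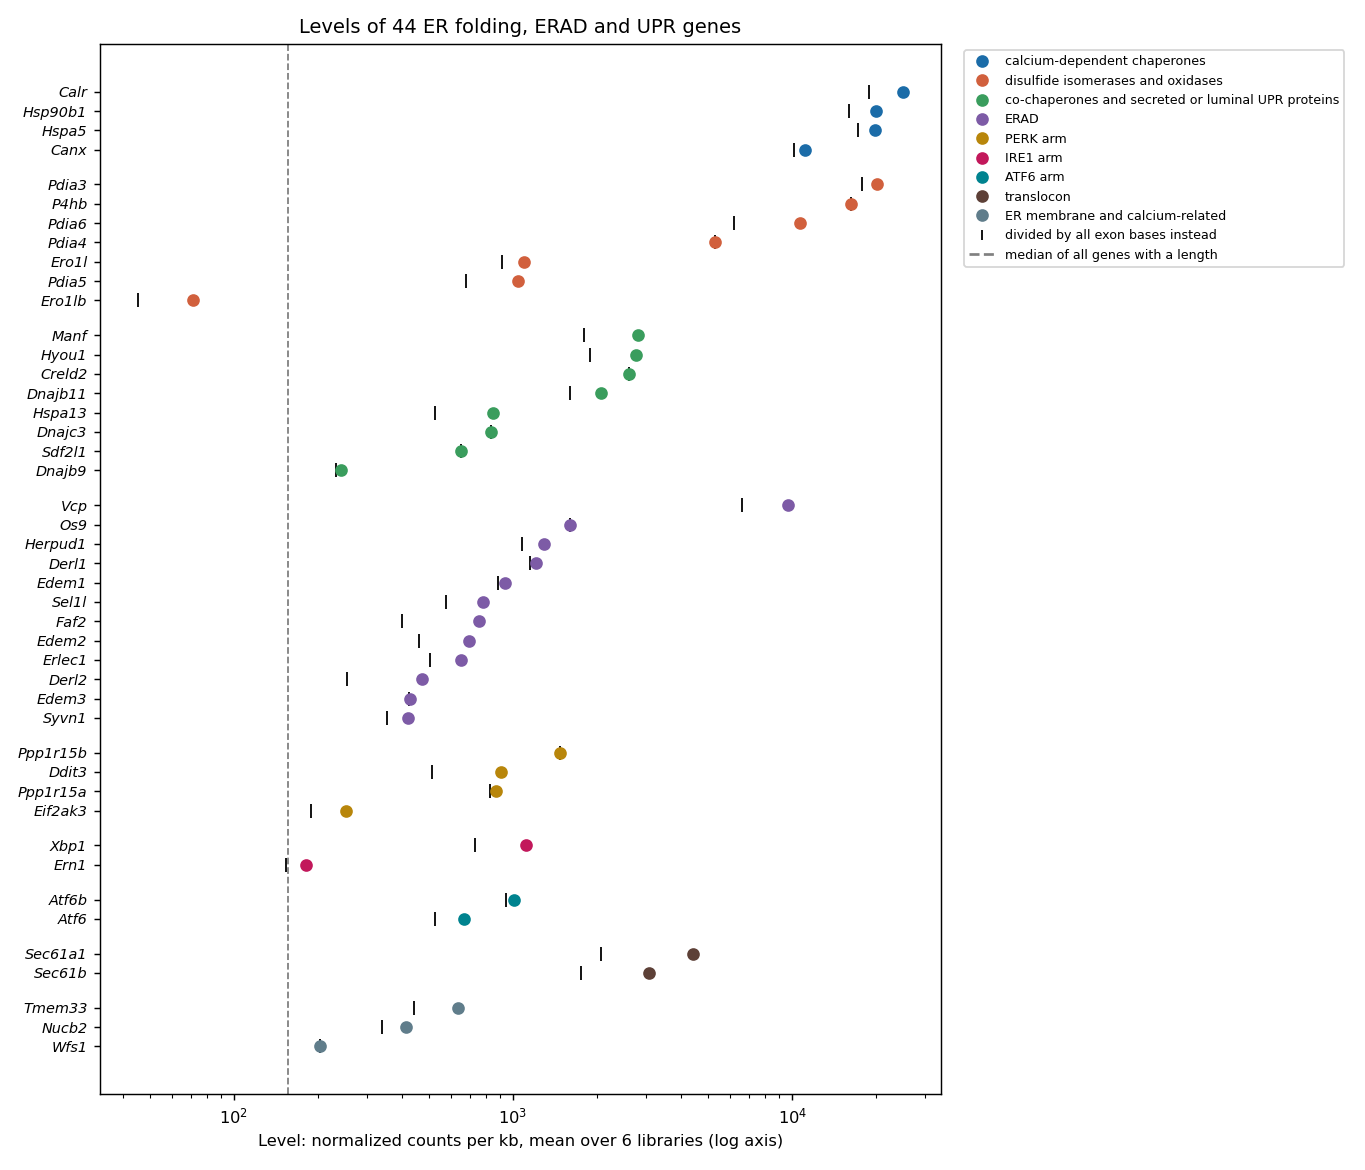
Level of each of the 44 members in normalized counts per kb on a log axis, grouped and coloured by role, as the mean over 6 libraries without replicate error. The black ticks divide the same mean by all exon bases of the gene, and the dashed line is the median of all genes with a length, 157 per kb. *Calr*, *Pdia3*, *Hsp90b1* and *Hspa5* lay farthest right, and *Ero1lb* alone lay left of the line.

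The calcium-dependent chaperones had the highest group median, 19890 per kb, and together held 0.504% of the summed level. *Calr* (ENSMUSG00000003814, chr8:84841850-84846934), which encodes the luminal lectin and calcium buffer calreticulin, had a mean of 54378 normalized counts and a level of 24898 per kb, above 99.5% of genes. *Hsp90b1* (chr10:86690209-86705509), the ER member of the Hsp90 family, stood at 20003 per kb. *Hspa5* (chr2:34771970-34777547), which encodes BiP, stood at 19778 per kb with the largest mean of any member, 72623 normalized counts. *Canx* (chr11:50293961-50325673), the membrane-bound lectin, was lowest of the group at 11092 per kb. The order within this group depended on the length used. *Hspa5* stood at 0.794 times the level of *Calr* by the longest transcript, 0.910 times by all exon bases and 1.85 times by the median transcript. In the same order the ratios of *Calr* to *Canx* were 2.24, 1.87 and 0.902. Those of *Hspa5* to *Hsp90b1* were 0.989, 1.07 and 1.95. Median transcripts can be short, such as 647 bases for *Hspa5* beside 3672 for its longest. Whether such short transcripts are complete was not checked, which limits every ratio by the median transcript. *Hsp90b1* shared 415 exon bases, 10.3% of its exon bases, with 1810014B01Rik on the opposite strand, whose mean was 20.1.

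Among the disulfide isomerases, *Pdia3*, which encodes ERp57 and works with the lectin chaperones, led at 20179 per kb. *P4hb* followed at 16225 per kb. It encodes the founding protein disulfide isomerase, which is also a subunit of the enzyme that hydroxylates collagen prolines. Then came *Pdia6* at 10665 per kb, *Pdia4* at 5297 per kb and *Pdia5* at 1040 per kb. The order *Pdia3*, *P4hb*, *Pdia6*, *Pdia4*, *Pdia5* was kept with each of the 3 length measures, and *Pdia4* stood 3.57 to 7.80 times above *Pdia5*. The group held 0.363% of the summed level, so that it and the calcium-dependent chaperones together made up most of the module's share.

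The oxidases that pass electrons from the isomerases to oxygen stood far apart. *Ero1l* was measured at 1095 per kb, with a mean of 4838 normalized counts. Its paralogue *Ero1lb* had a mean of 302 ± 7.54 normalized counts (counting error), the lowest among the members. *Ero1l* had 15.3 times the level of *Ero1lb* by the longest transcript, 20.1 times by all exon bases and 78.1 times by the median transcript. The median transcript of *Ero1l* has 543.5 bases, beside 4418 for its longest. *Ero1lb* nevertheless carried an ERSE, at 201 bases upstream.

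Co-chaperones and luminal or secreted proteins spanned 241 to 2806 per kb with a median of 1456, and all 8 lay above the median of all genes. Against the median of genes whose mean reached 100, *Dnajb9* lay below. *Manf*, a luminal protein released when ER calcium falls, was at 2806 per kb. *Hyou1*, the nucleotide exchange factor of BiP also known as GRP170, was at 2762 per kb, and *Creld2*, a secreted factor with EGF-like repeats, at 2607 per kb. By the longest transcript these 3 stood within 1.08 times of each other. With other lengths *Manf* stood at 0.686 (all exon bases) to 4.44 times (median transcript) the level of *Creld2*. *Manf* shared 146 exon bases, 4.14% of its exon bases, with *Vprbp* on the opposite strand, which had a mean of 4047. The other Hsp70-like member, *Hspa13*, stood at 849 per kb, and *Hyou1* was 3.25 to 3.92 times as high. The J-domain proteins, which bring clients to BiP and start its ATP hydrolysis, kept the order *Dnajb11* at 2062, *Dnajc3* at 837 and *Dnajb9* at 241 per kb with each length. *Sdf2l1*, a partner of *Dnajb11*, was at 654 per kb.

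ERAD factors had a median of 769 per kb over the 12 genes measured, and all 12 lay above the median of all genes. Against the median of genes whose mean reached 100, *Derl2*, *Edem3* and *Syvn1* lay below. *Vcp*, the cytosolic ATPase that extracts substrates and has many uses outside the ER, stood apart at 9661 per kb, with a mean of 32035 normalized counts. The next highest was *Os9* at 1606 per kb, a lectin that reads trimmed glycans, and *Erlec1*, the other such lectin, was at 650 per kb. Their order turned with the median transcript, where *Os9* had 0.732 times the level of *Erlec1*. *Herpud1* stood at 1291 per kb. The ligase *Syvn1*, which encodes HRD1, was at 421 per kb, the lowest of the group by the longest transcript, though *Derl2* was lower with all exon bases. The adaptor of HRD1, *Sel1l*, was at 781 per kb, 1.63 to 6.48 times as high as *Syvn1* over the 3 lengths.

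The derlins, rhomboid-like proteins of the retrotranslocation channel, were at 1204 per kb for *Derl1* and 470 per kb for *Derl2*, an order that turned with the median transcript. *Derl2* shared 231 exon bases, 2.87% of its exon bases, with *Mis12* on the opposite strand, which had a mean of 4251. *Syvn1* shared 91 exon bases, 1.87%, with *Mrpl49* on the opposite strand, which had a mean of 2869. The EDEM proteins, which trim mannose from misfolded glycoproteins, kept the order *Edem1* at 938, *Edem2* at 695 and *Edem3* at 429 per kb with each length. *Faf2*, a membrane adaptor that recruits VCP, was at 756 per kb, and *Vcp* was 12.8 to 16.4 times as high.

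*Eif2ak3* and *Ern1* were among the lowest members by the longest transcript, at ranks 40 and 43 of 44. *Eif2ak3* (chr6:70844515-70905245), which encodes the kinase PERK, had a level of 251 per kb and a mean of 1134 normalized counts. *Ern1* (chr11:106394650-106487852), which encodes the kinase and endonuclease IRE1, had a level of 181 per kb, above 52.0% of genes. *Atf6* (chr1:170704674-170867771), the membrane-bound factor that is cut in the Golgi, stood higher at 668 per kb, and its relative *Atf6b* at 1012 per kb was near the members' median. With the median transcript *Atf6* fell just below *Eif2ak3*, at 1038 against 1066 per kb. *Hspa5*, whose product binds the luminal parts of PERK, IRE1 and ATF6, stood 78.7 times above *Eif2ak3*, 109 times above *Ern1* and 29.6 times above *Atf6* by the longest transcript. With the median transcript these ratios were 105, 175 and 108, and with all exon bases 91.3, 112 and 32.7.

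By the longest transcript the downstream genes of the PERK arm stood above the kinase, but with the median transcript *Ppp1r15a* fell just below it, at 1042 against 1066 per kb. *Ppp1r15b*, the constitutive partner of the phosphatase that reverses eIF2α phosphorylation, was at 1473 per kb, and the inducible partner *Ppp1r15a* was at 866 per kb, a ratio of 1.70 to 1.78 over the 3 lengths. *Ddit3*, which encodes the transcription factor CHOP, had a mean of 881 normalized counts and a level of 909 per kb. That was 3.62 times the level of *Eif2ak3* by the longest transcript, 2.73 times by all exon bases and 1.11 times by the median transcript. *Ddit3* shared 68 exon bases, 3.97% of its exon bases, with *Mars* on the opposite strand, which had a mean of 9495. The strand setting used for counting is not given, so reads from these bases cannot be told apart. In the IRE1 arm *Xbp1*, whose mRNA IRE1 splices, was at 1115 per kb, 6.17 times *Ern1* and never under 3.55 times with another length. A mean per gene does not separate spliced from unspliced *Xbp1*, nor cut from whole ATF6.

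The translocon subunits were at 4397 per kb for *Sec61a1*, the channel itself, and 3070 per kb for *Sec61b*, its small partner. Of the remaining members *Tmem33*, an ER membrane protein, was at 635 per kb, *Nucb2*, a calcium-binding nucleobindin, at 413 per kb and *Wfs1*, the ER membrane glycoprotein wolframin, at 203 per kb.

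A further 5 lists of ER genes, grouped by role, put these levels in context. The other ER folding enzymes and chaperones had a median of 1281 per kb over 26 genes, close to the members' 1026, and 23 lay above the median of all genes. Their highest were *Serpinh1*, the collagen chaperone, at 22847 per kb, *Prdx4*, a luminal peroxidase, at 6424 per kb and *Fkbp10*, a prolyl isomerase of collagen, at 4656 per kb. Genes of glycoprotein folding and quality control had a median of 2333 per kb over 14, led by the oligosaccharyltransferase subunits *Rpn2* at 8237, *Ddost* at 5077 and *Rpn1* at 4908 per kb. Hardly detected were *Clgn*, a calnexin relative of the testis, with a mean of 0.147, and *Pdia2*, an isomerase of the pancreas, with 6.35.

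Other ERAD and retrotranslocation factors had a median of 1059 per kb over 16 genes, all above the median of all genes, beside 769 for the ERAD members. *Aup1* at 3119, *Nploc4* at 2315 and *Erlin1* at 1949 per kb led them. *March6*, *Vimp*, *Fam8a1* and *Bag6* were not analysed. The list of other sensor-arm, ATF4 and translocon genes had a median of 1097 per kb over 26, with *Ern2* not analysed. *Atf4*, the transcription factor translated when PERK or another eIF2α kinase is active, was at 9878 per kb, its amino acid synthesis target *Asns* at 8576 per kb and the translocon-associated *Ssr2* at 8461 per kb. Luminal calcium-binding proteins had a median of 1087 per kb over 10, from *Calu* at 13154 per kb, *Rcn1* at 2995 and *Rcn2* at 1570 down to the muscle protein *Casq1*, with a mean of 6.24. No test was run between lists.

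**Figure D4:**
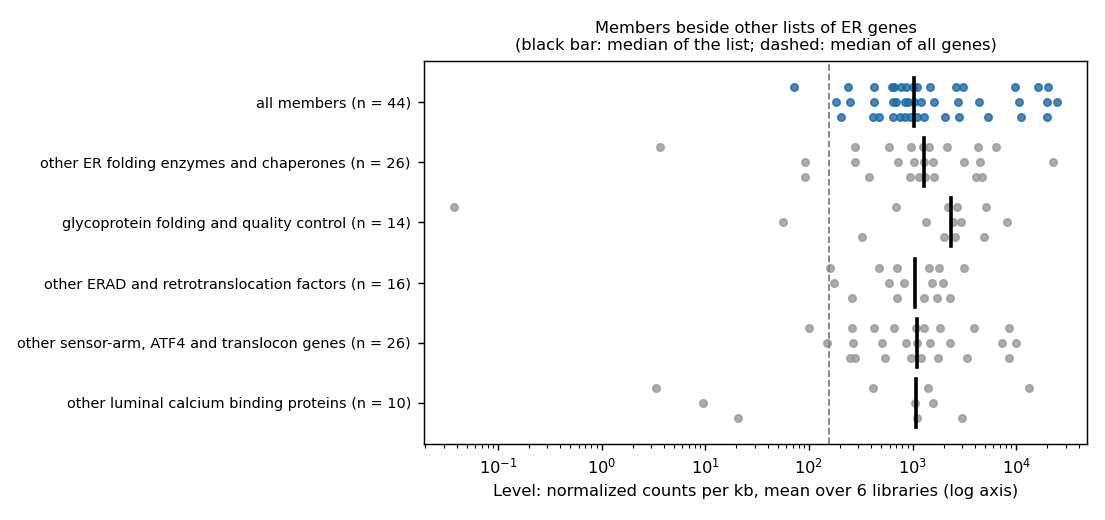
Levels in normalized counts per kb on a log axis for the 44 members (blue) and for 5 other lists of ER genes (grey), each point 1 gene as the mean over 6 libraries. Black bars mark the medians, 1026 for the members and 1281, 2333, 1059, 1097 and 1087 for the other lists, and the dashed line is the median of all genes with a length.

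Across these lists the ERSE was rare. It stood in 1 of the 9 promoters found for luminal calcium-binding proteins, that of *Calr4*, and in none of the 22, 12, 10 and 24 promoters found for the other 4 lists. The ERSE-II stood in 1 of them, *Nucb1*. The UPRE stood in 2 of 22 folding enzyme, 1 of 12 glycoprotein folding and 1 of 10 other ERAD promoters. It was absent from the remaining lists. The CARE stood in 2 of 22 folding enzyme and 3 of 24 sensor-arm, ATF4 and translocon promoters only. A CCAAT box stood in 14 of 22 folding enzyme, 7 of 12 glycoprotein folding and 2 of 10 other ERAD promoters. It also stood in 11 of 24 sensor-arm, ATF4 and translocon and 7 of 9 luminal calcium-binding promoters.

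Members with and without an ERSE overlapped widely in level. The 9 members with an ERSE and a level ran from 71.4 per kb for *Ero1lb* to 24898 per kb for *Calr*, with a median of 10665. The 27 without one had a median of 909 per kb, yet included *Pdia3* at 20179 and *P4hb* at 16225. Among those with an ERSE, 4 were the calcium-dependent chaperones, from 11092 to 24898 per kb. The others were *Pdia6* at 10665, *Creld2* at 2607, *Dnajc3* at 837, *Syvn1* at 421 and *Ero1lb* at 71.4 per kb. The medians were not compared within role groups. No test was made, as members share regulators and were not sampled independently.

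**Figure D5:**
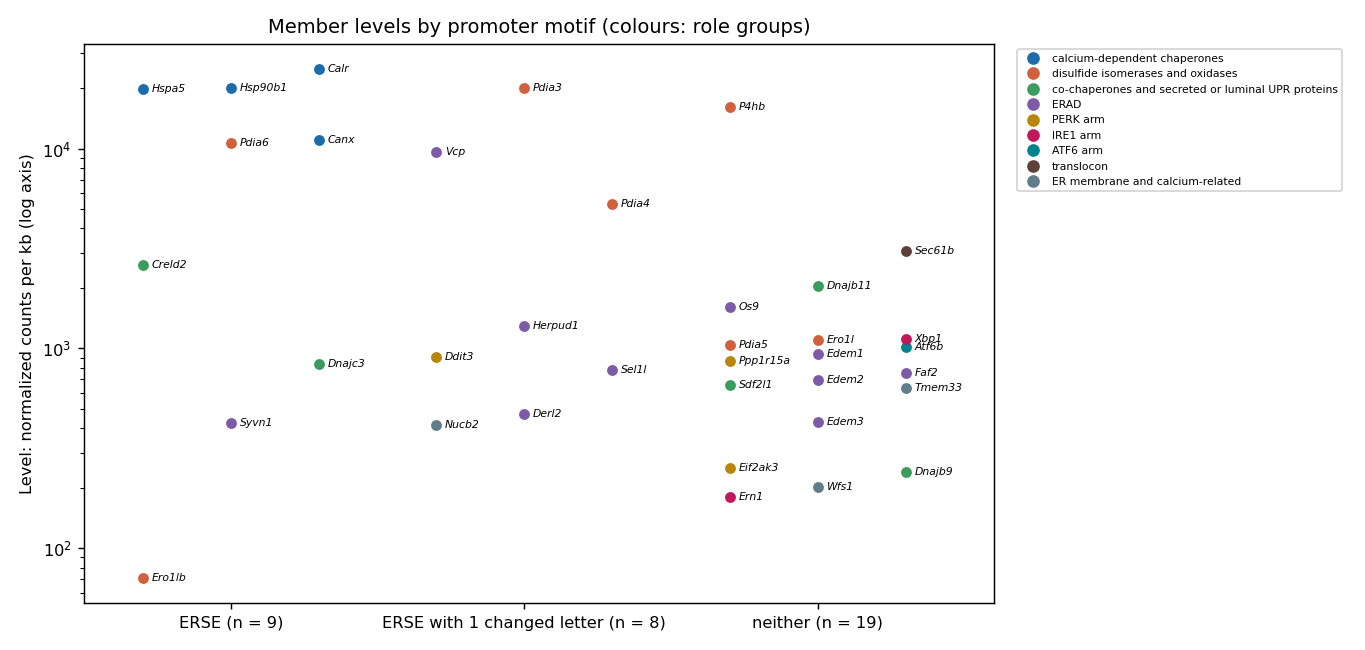
Level in normalized counts per kb (log axis) of the 36 members with both a level and a promoter, split by whether the promoter held an ERSE (9), an ERSE with 1 changed letter among the last 5 (8) or neither (19), with colours for role groups and horizontal offsets only for legibility. The ERSE group held the 4 calcium-dependent chaperones and also the lowest member, *Ero1lb*.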

How the data were processed

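Poly(A)-selected RNA of 6 libraries, 3 *Ms4a15* OE and 3 control, was sequenced as paired ends per the labels. The labels name a strand-specific kit, whereas the methods name a kit without that word and another RNA extraction kit and read length. Reads were aligned to mm10 with the UCSC knownGene annotation and counted per gene with HTSeq. The methods name STAR as the aligner, and the submitters' processing notes name TopHat, Cufflinks, Cuffdiff, HTSeq and DESeq2. The strand setting of the counting is not given in the sources used here. The deposited value used here is a signal per gene, the mean over all 6 libraries of read counts that the authors divided by DESeq2 size factors. The same table holds the authors' own comparison of the groups (log2 fold change, its standard error, p-values and direction). Those columns were not used, and a test of *Ms4a15* OE against control was not made.

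From the means, levels per kb were computed with Python 3.11.15 by division by the longest GENCODE M21 transcript (GRCm38). Of 19078 genes, 16239 (85.1%) had a length. *Ero1l* and *Ero1lb* were matched through their current symbols, and 25 symbols read as dates. The counting error of a mean was at most the square root of the mean times the worth of 1 read in the smallest library, 0.188. PCR duplicates were not marked by molecular identifiers, so these errors cover counting only. Motifs were searched in RefSeq promoters of GRCm38.p6 on both strands. The search recovered 1000 of 1000 motifs planted with the same letters in simulated promoters. That checks the code only, not whether a match is functional or an element was missed. No test was run, and no adjusted value is given. Figures were drawn with matplotlib 3.10.9. Protein sequences were not used here.

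The members and the gene lists were chosen with earlier results of these data known. Besides the members, genes were named if they were the 3 highest of a list, had a mean under 10 in a list, or marked a cell type. The genes that share exon bases with a member and those under other observations were named after their values were seen. Alternatives were the length measure, the genes compared with, the strand searched, all promoter windows and 1 changed letter in the ERSE, of which exon-union length, the median transcript for the share of the summed level, all windows, listed genes without the members and the changed letter were chosen after seeing the data.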

Additional observations from a re-analysis of the deposited data

How the results depend on the processing

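No paired analysis was possible because only means over all 6 libraries were analysed here. For the same reason the alternatives for a test of *Ms4a15* OE against control (size factors, tool, count filter, pseudocount, replicate block and leaving out replicates) were not run, and the spread between libraries limits every level by an amount that is unknown. For levels only the length was varied or left out. The members' median of 1026 per kb became 2600 with the median transcript and 860 with all exon bases, and 3710 normalized counts when not divided by length. Over both other lengths 19 members moved by more than 5 places in the order, at most 15. The module's share of the summed level, 1.18%, was 1.23% without the 10 genes with the highest mean, 1.01% without *Calr*, 1.65% with the median transcript, 1.31% with all exon bases and 1.30% undivided. The count of members above the median of all genes, 43, was 39 against genes whose mean reached 10, 35 against those reaching 100 and 44 undivided. On the strand of the gene alone the ERSE stood in 6 member promoters and 0.103% of listed genes, the UPRE in 0.909% of listed genes, and the CARE in 0 members and 0.735% of listed genes. Over all 32851 promoter windows of the reference the ERSE share was 0.119% and the ERSE-II share 0.0365%. Among listed genes that are not members the ERSE share was 0.111%. With 1 changed letter allowed the ERSE stood in 18 members and 1.54% of listed genes.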

Other observations

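Outside the module the strict ERSE stood in 14 listed genes, which were looked at after the values were seen. Of these, 7 reached a mean of 100 normalized counts and 3 stayed under 10. *Hnrnpa3*, an RNA-binding protein, was the highest at 7059 per kb, followed by *Zfp57*, an imprinting regulator, at 427 per kb, *Pan2*, a deadenylase subunit, at 339 per kb and *Alg12*, a mannosyltransferase of ER glycan synthesis, at 249 per kb. *Calr4*, a calreticulin paralogue, was at 20.6 per kb. *Xlr3a*, *Xlr3b* and *Xlr3c* are near-identical X-linked copies, so their separate levels of 25.5, 249 and 22.2 per kb are uncertain.

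The ERSE of *Creld2*, at chr15:88819520-88819538, also lay in the window of *Alg12*, which runs the other way, 220 bases upstream of its start and 126 bases upstream of that of *Creld2*. Both genes thus share 1 copy, and *Creld2* stood at 2607 per kb against 249 per kb for *Alg12*. The ERSE of *Calr*, at chr8:84847075-84847093, likewise lay 72 bases upstream of 1700122E12Rik, which was not analysed for its level.

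The ERSE-II stood in 7 listed genes outside the module. They were *Rbm39*, a splicing factor, at 4051 per kb, *Krtcap2*, a subunit of the oligosaccharyltransferase, at 2412 per kb, *Rcl1* at 1888 per kb, *Nucb1*, a calcium-binding relative of *Nucb2*, at 1399 per kb, 1110067D22Rik at 866 per kb, 4933421E11Rik at 262 per kb and *Rnf151* at 5.24 per kb. *Nucb2* itself held a near match to the ERSE. These matches are descriptions of letters in the reference and were not tested for binding.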
